A study of Mus musculus with 16 samples.

Results

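The comparison is between wild-type mice kept in an enriched environment and wild-type mice kept in standard cages, read in the hippocampus. Its 8 arrays, of 16 in the series, were chosen by their titles: 3 arrays of enriched mice, named WT_EE_1 to WT_EE_3, and 5 arrays of mice in standard cages, named WT_SC_1 to WT_SC_5. All mice were females aged 3 months of the second filial generation (F2) from C57BL/6J and DBA strains, and the wild-type mice were littermates of mice heterozygous for a CBP deficiency (cbp+/-). The enriched mice spent 2 weeks in large shared boxes with running wheels, toys, tubing and natural materials, and the boxes were rearranged every 48 hours. Tissue was taken 16 hours or more after the last rearrangement. The mice in standard cages lived in groups of up to 5. Each array read a pool of equal RNA amounts from 4 animals, so the 8 arrays stand for 32 mice, and the spread between arrays is a spread between pools. The other 8 arrays, 3 of enriched and 5 of standard-cage cbp+/- mice, enter only the shared estimate of spread and a test of the difference between genotypes.

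Environmental enrichment combines running, exploration and company, and in rodents it is known to raise the survival of newborn granule neurons in the dentate gyrus and to alter synapses. Neuronal activity switches on immediate early genes within minutes, first transcription factors such as Fos and Egr1 and then effectors such as Bdnf, Arc and Homer1, which act at synapses. CREB and its coactivators, CBP among them, carry much of this induction. The hippocampus as dissected holds several cell types, and with such bulk tissue fewer cells of a type and less RNA per cell cannot be told apart. The defining markers of its neurons were bright: Camk2a, the kinase subunit of excitatory forebrain neurons, had log2 signals of 11.88, 11.97 and 11.45 on the enriched arrays and of 11.96, 11.89, 12.14, 12.17 and 11.60 on the standard-cage arrays.

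No gene passed the test. On the log2 scale of the deposited signals, limma fitted over all 16 arrays, with Benjamini-Hochberg adjustment over 21780 probe sets (19935 genes), called 0 of them at an adjusted p under 0.05, and the smallest adjusted p was 0.052. At an unadjusted p under 0.05 there were 3884 (17.8%), of which 3073 were higher and 811 lower in enriched mice, and without WT_EE_1 there were 1979. Differences are therefore given below as values, enriched minus standard cage, with the standard error (SE) of that fit. As a second measure, all 3 enriched arrays lay above all 5 standard-cage arrays for 9.16% of probe sets and below them for 2%.

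The direction of a difference went with the brightness of the probe set. Of the 10890 dimmer probe sets (mean log2 signal under 6.59), 9189 were higher in enriched mice, with a median difference of 0.08. Of the 10890 brighter ones, 7370 were lower, with a median of -0.07. All enriched arrays lay above all standard-cage arrays for 17% of the dimmer and 1.32% of the brighter probe sets, and below them for 0.579% of the dimmer and 3.42% of the brighter ones. The interquartile range of the log2 signals was 2.30, 2.43 and 2.40 on the enriched arrays, against 2.59, 2.57, 2.53, 2.52 and 2.51 on the standard-cage arrays, so the groups did not overlap in it. After quantile normalization, which gives every array the same distribution, the medians of the dimmer and brighter probe sets were 0.00 and -0.01, and 2010 probe sets had an unadjusted p under 0.05. Array WT_EE_1 lay farthest out in the plot of deviation by brightness.

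**Figure D1:**
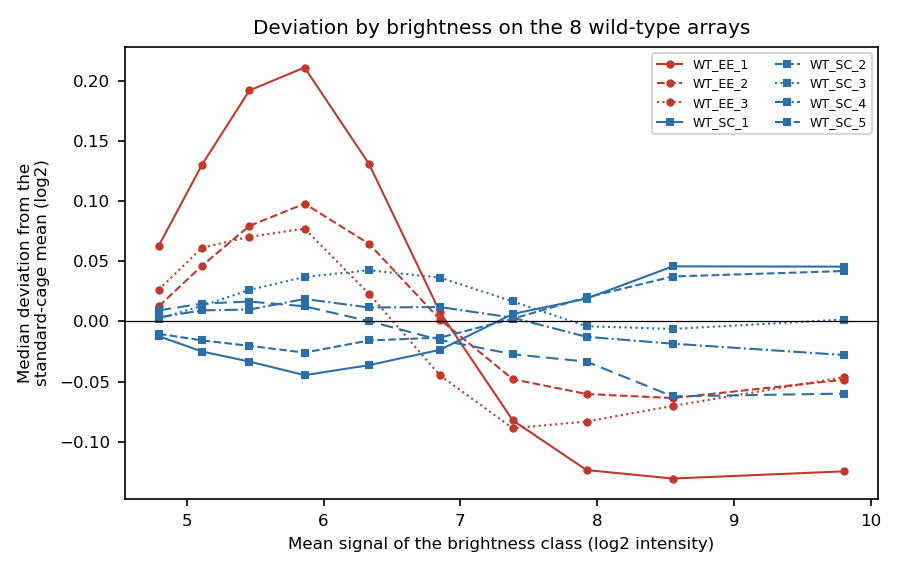
Median deviation from the standard-cage mean (log2) in 10 classes of probe sets of equal size, against the mean log2 signal of the class, with 1 line per wild-type array. The 3 enriched arrays lie above 0 in the 5 dimmest classes and below 0 in the 4 brightest; in the class centred near 5.86 they reach 0.21, 0.10 and 0.08.

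Families of genes that the hippocampus is not known for, read at dim signals, were higher with this pattern. Of 1015 probe sets of olfactory receptors, the odour receptors of the nasal epithelium, 933 were higher in enriched mice, with a median difference of 0.06 that was 0.01 after quantile normalization. Higher values were also measured for 91 of 96 keratins and keratin-associated proteins (median 0.12, and 0.03 after quantile normalization), for 33 of 38 genes of striated muscle (0.13 and 0.02) and for 23 of 24 genes of liver (0.08 and 0.00). Among the 5 dimmer genes of smallest p that the naming rule took were Tnnc1, the calcium-binding troponin of slow and cardiac muscle, and Myog, a transcription factor of muscle formation. Tnnc1 had log2 signals of 6.30, 6.23 and 6.39 in enriched mice, against 5.89, 5.92, 6.00, 5.92 and 5.96 in standard cages, a difference of 0.37 (SE 0.05, adjusted p = 0.052 by limma) that was 0.28 after quantile normalization. Myog differed by 0.35, the glutathione transferase gene Gstp3 by 0.35, Trim80 by 0.26 and Cyp2d10, a cytochrome P450 gene, by 0.42. Each of these 5 was higher on all enriched arrays than on any standard-cage array. Since they were taken for small p on these arrays, that follows largely from the choice, and 17% of all dimmer probe sets lay so. The part of the change in signal range in these dim genes was not tested beyond the quantile values, which were 0.15 to 0.31 for the 5.

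The arrays also fell into 4 sets by overall likeness, and the sets cross the housing groups. Clustering of all log2 values put WT_EE_1, WT_EE_2, WT_SC_1 and WT_SC_2 in set 1, WT_SC_3 in set 2, WT_SC_4 in set 3, and WT_EE_3 with WT_SC_5 in set 4, and each set also held the same-numbered cbp+/- arrays. What the sets are is not given in the labels. The housing difference can be read within set 1 (2 arrays against 2) and within set 4 (1 against 1, which allows no test). Within set 1, on 8 arrays of both genotypes with 4 residual degrees of freedom, limma called 3499 probe sets higher (16.1%) and 3014 lower (13.8%) in wild-type enrichment. Because the sets were clustered from these same values, their p-values may be too small.

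Among the brighter probe sets, the differences of set 1 were mostly not met again in set 4. Of 870 brighter probe sets that passed as higher in set 1, 284 (32.6%) were above 0 in set 4, where 47% of all brighter probe sets were. Of 2649 that passed as lower, 802 (30.3%) were below 0 in set 4, against 52.9% of all. Across the brighter probe sets the 2 sets' differences had a correlation of -0.334 on the deposited values and of -0.34 after quantile normalization. These are descriptions across probe sets, which are not independent, and the set 4 values rest on 1 array a group. Among the dimmer probe sets, 1808 of 2629 that passed as higher in set 1 were above 0 in set 4 (68.8%, against 64.8% of all dimmer probe sets).

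**Figure D2:**
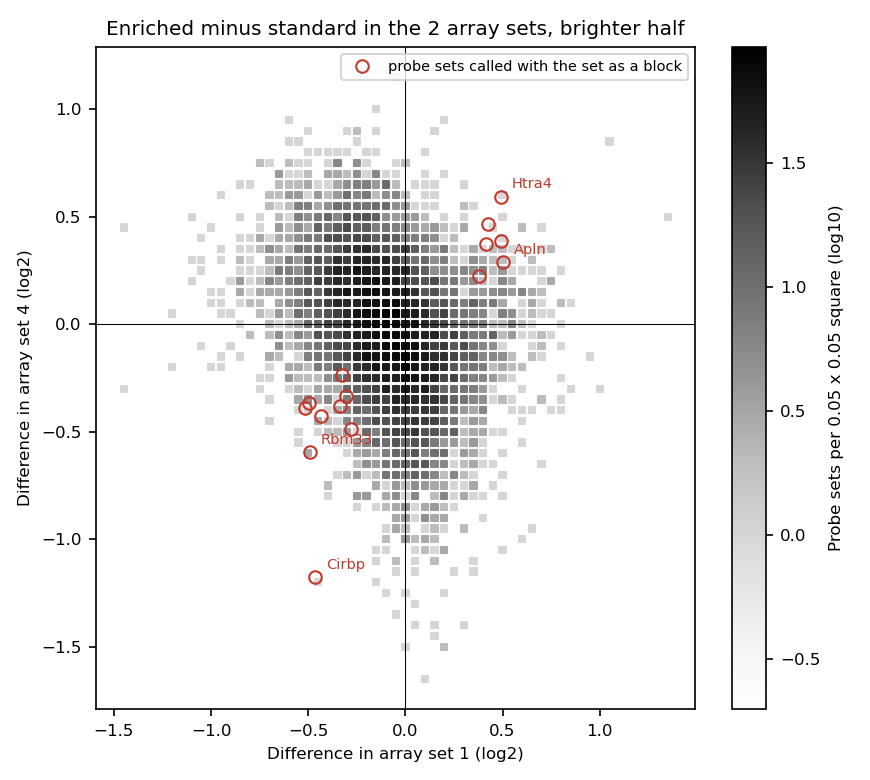
Difference between enriched and standard-cage wild-type arrays (log2) in array set 1 (horizontal) and array set 4 (vertical) for the brighter probe sets, shaded by their number, with circles at the 15 probe sets called with the set as a block (dimmer ones included). The shaded cloud tilts downward to the right, and the 15 circles, chosen by a fit that rests on these sets, lie where both have the same sign.

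With the array set as a block in the fit, 15 probe sets of 14 genes passed (0.0689%), 6 higher and 9 lower in enriched mice. The block rests on set 1 and set 4, since sets 2 and 3 hold no enriched arrays, so that the same sign of all 15 in both sets follows from how they were chosen. After quantile normalization with the same block, none of the 15 passed, with adjusted p-values of 0.057 to 0.114. These genes are named because they passed, so they were chosen by their values on these arrays.

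Htra4, a secreted serine protease of the HtrA family, was the brighter gene of smallest p among those higher in enriched mice. Its log2 signals were 7.29, 7.45 and 7.33 on the enriched arrays, against 6.79, 6.96, 6.79, 6.94 and 6.74 on the standard-cage arrays, with no overlap. The difference was 0.51 (SE 0.10, 1.43-fold, adjusted p = 0.088 by limma), 0.49 in set 1 and 0.59 in set 4, and 0.49 with the set as a block (adjusted p = 0.049). Apln, which encodes the peptide apelin of endothelial cells, had 7.49, 7.46 and 6.94 in enriched mice, against 7.01, 6.93, 7.31, 7.03 and 6.65 in standard cages. The groups overlapped, and the difference was 0.31 in the fit without block and 0.42 with it (adjusted p = 0.047). Vpreb3, Prss52, Cyp2d10 and the locus Gm15348 were the other 4 that were higher with the block, by 0.34 to 0.45. All 4 are among the dimmer probe sets, at mean log2 signals of 5.28 to 6.38. With quantile normalization and the block they were higher by 0.23 to 0.41.

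Of the 9 probe sets that were lower with the set as a block, that of Cirbp had the largest difference. Cirbp, the cold-inducible RNA-binding protein, had log2 signals of 8.15, 8.40 and 7.73 in enriched mice, against 8.76, 8.72, 8.38, 8.70 and 8.91 in standard cages. Only WT_EE_2 reached the range of the standard-cage arrays, and the difference with the block was -0.71 (SE 0.11, adjusted p = 0.047), -0.46 in set 1 and -1.18 in set 4. Srsf5, a splicing factor of the serine- and arginine-rich family, was lower on both of its probe sets, by -0.44 and -0.42 with the block (adjusted p = 0.047 for each). On the first probe set the enriched arrays read 9.70, 9.81 and 9.99, against 10.28, 10.27, 9.51, 9.84 and 10.38 in standard cages, so WT_SC_4 lay inside the enriched range and WT_SC_3 below it. Rbm33, which encodes an RNA-binding protein, was lower by -0.51 with the block. The remaining 5 were Fam13a (-0.39), Poc5, a centriole protein (-0.34), Rwdd2a (-0.34), Zranb1, a deubiquitinase (-0.30), and Dync1li1, a light intermediate chain of the dynein motor (-0.29).

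Among the brighter genes, the naming rule took the 10 of smallest p in each direction, and all 20 had the same direction after quantile normalization and in both array sets. Since they were chosen for small p on these same arrays, that agreement follows largely from the choice and is a description. Those higher after Htra4 were Fam25c (0.47), Cd164l2 (0.41), Col9a3, a chain of a cartilage collagen (0.39), Zfp524 (0.39), the serotonin receptor gene Htr5b (0.38), Rps19 of the small ribosomal subunit (0.36), Afg1l, a mitochondrial ATPase (0.34), Pelo, a ribosome rescue factor (0.22), and Vwa3b (0.22). Htr5b had 7.04, 7.0 and 6.88 in enriched mice, against 6.53, 6.87, 6.64, 6.52 and 6.38 in standard cages, and its groups lay next to each other without overlap. Adjusted p-values for the 10 ran between 0.088 and 0.123 by limma. Vwa3b was read by 8 probe sets that pointed both ways, between -0.24 and 0.22, and Rps19 has near-identical copies in the genome that its probes could also read.

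Of the 10 brighter genes lower in enriched mice, Zbtb43, a zinc finger gene, had the smallest p. Its log2 signals were 7.04, 7.09 and 7.07 in enriched mice, against 7.40, 7.47, 7.36, 7.43 and 7.43 in standard cages, a difference of -0.35 (SE 0.07, adjusted p = 0.070 by limma). Rab3gap2, a subunit of the complex that switches off the vesicle GTPase Rab3, had 8.13, 8.31 and 8.30 in enriched mice, against 8.71, 8.72, 8.44, 8.65 and 8.57 in standard cages, a difference of -0.37 (SE 0.07, adjusted p = 0.083). Neither gene's groups overlapped. The others were Aifm3 (-0.42), Prkab1, a regulatory subunit of the energy-sensing AMP kinase (-0.40), Hap1, a huntingtin-binding transport protein (-0.35), Lrrc41 (-0.34), Cstf1, a factor in cleavage of messenger RNA ends (-0.32), Fbxl20, a ubiquitin ligase subunit (-0.26), Mtmr10 (-0.25) and Sf3b2, a splicing factor (-0.22). Their adjusted p-values lay between 0.070 and 0.110, and in set 4 the smallest of these differences was that of Fbxl20, at -0.08.

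**Figure D3:**
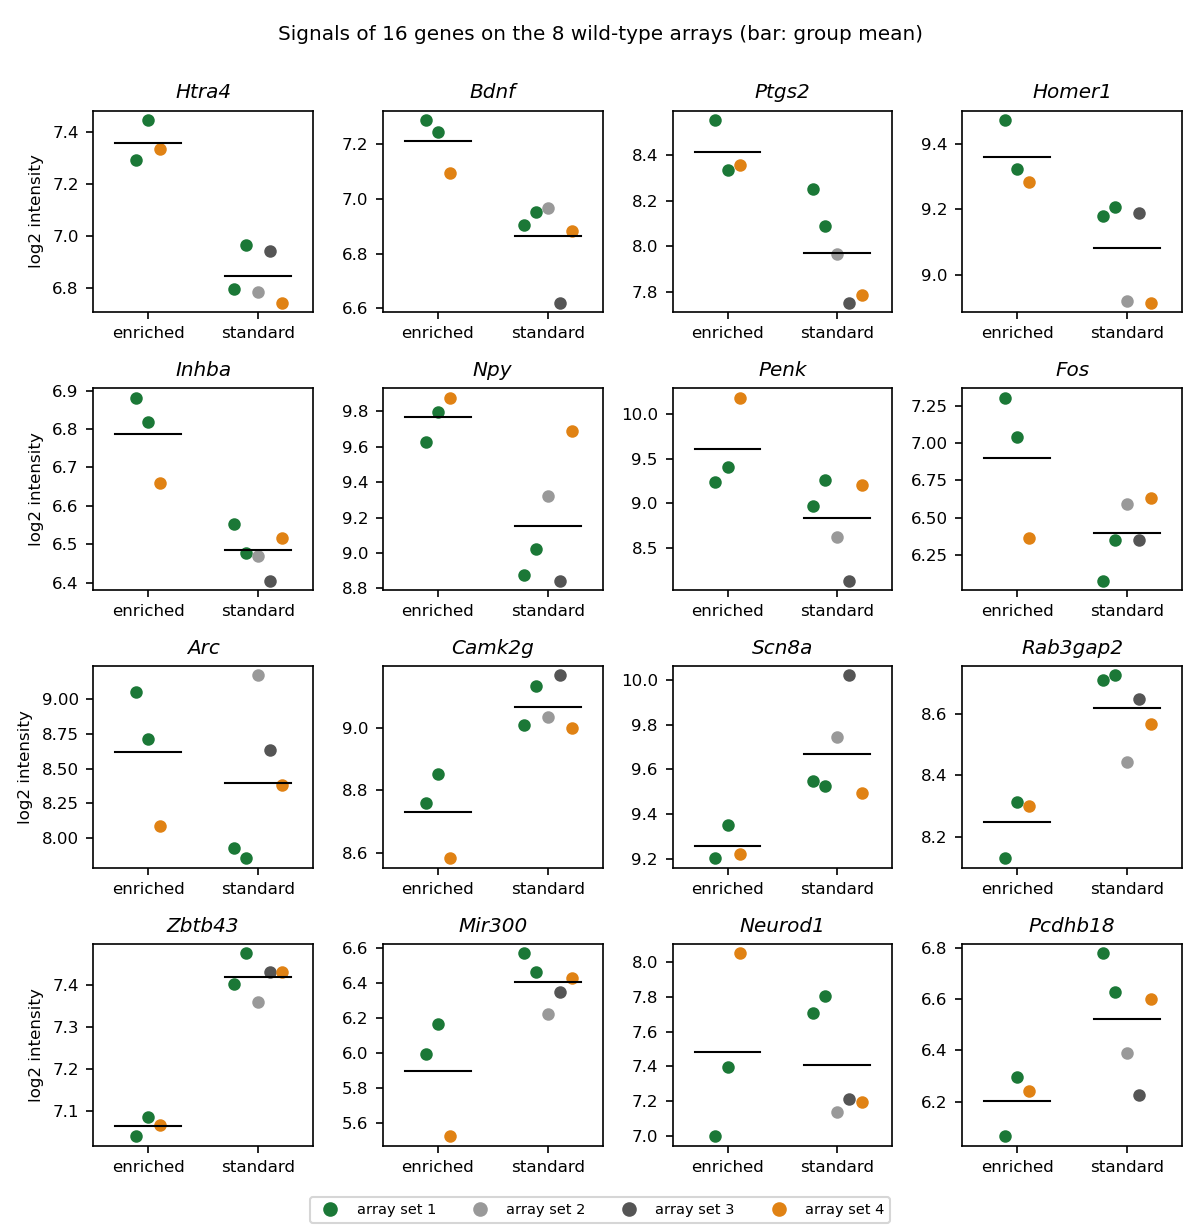
Log2 signals of 16 genes on each of the 8 wild-type arrays, enriched left and standard cage right, coloured by array set, with a bar at each group mean. Htra4, Bdnf, Ptgs2, Homer1, Inhba, Camk2g, Scn8a, Rab3gap2, Zbtb43 and Mir300 have no overlap between the groups, whereas Fos, Arc and Neurod1 differ between sets 1 and 4 in direction. The genes without overlap had been named for small p on these same arrays, so their lack of overlap follows largely from the choice.

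The immediate early transcription factors were higher in enriched mice within set 1 and not within set 4. Of 27 measured, 20 were higher over all arrays and 7 lower, 0 passed, and the median difference was 0.11, against 0.03 over all probe sets. All enriched arrays lay above all standard-cage arrays for 3 of the 27 (11.1%, near the 9.16% of all probe sets). These were Maff and Atf3, at dim signals, and Nr4a3, at a mean log2 signal of 8.28 and named after its values were seen. That share was 1.32% of the brighter probe sets, which hold 17 of the 27 factors, and 17% of the dimmer ones. Within set 1 the median was 0.25, and 15 of 27 passed as higher and 0 as lower, beside 16.1% and 13.8% of all probe sets; after quantile normalization it was 11 and 0, beside 8.11% and 8.53%. In set 4 the median was -0.05, and 11 of 27 were above 0. Over the list, the median deviation from the standard-cage mean was 0.24 and 0.17 on WT_EE_1 and WT_EE_2 and -0.08 on WT_EE_3, while the standard-cage arrays ranged between -0.08 and 0.13.

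Fos, which forms the AP-1 dimer with a Jun protein, had log2 signals of 7.30, 7.04 and 6.36 in enriched mice, against 6.08, 6.35, 6.59, 6.35 and 6.63 in standard cages. The enriched arrays of set 1 were above all others, and WT_EE_3 lay inside the standard-cage range. The difference was 0.50 (SE 0.18, adjusted p = 0.189 by limma), 0.96 in set 1 (adjusted p = 0.0059 there) and -0.27 in set 4. Egr1, a zinc finger factor, had 7.505, 7.25 and 7.30 in enriched mice, against 6.48, 6.78, 7.91, 7.11 and 7.10 in standard cages, and its difference was 0.28 (SE 0.30), 0.75 in set 1 and 0.20 in set 4. Nr4a1, an orphan nuclear receptor, differed by 0.27 over all arrays, by 0.85 in set 1 and by -0.31 in set 4, and Npas4, a neuron-specific activity factor, by 0.15, 0.45 and -0.18. WT_SC_3, the only wild-type array of set 2, held the highest standard-cage values of Egr1, Nr4a1, Npas4 and Arc.

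**Figure D4:**
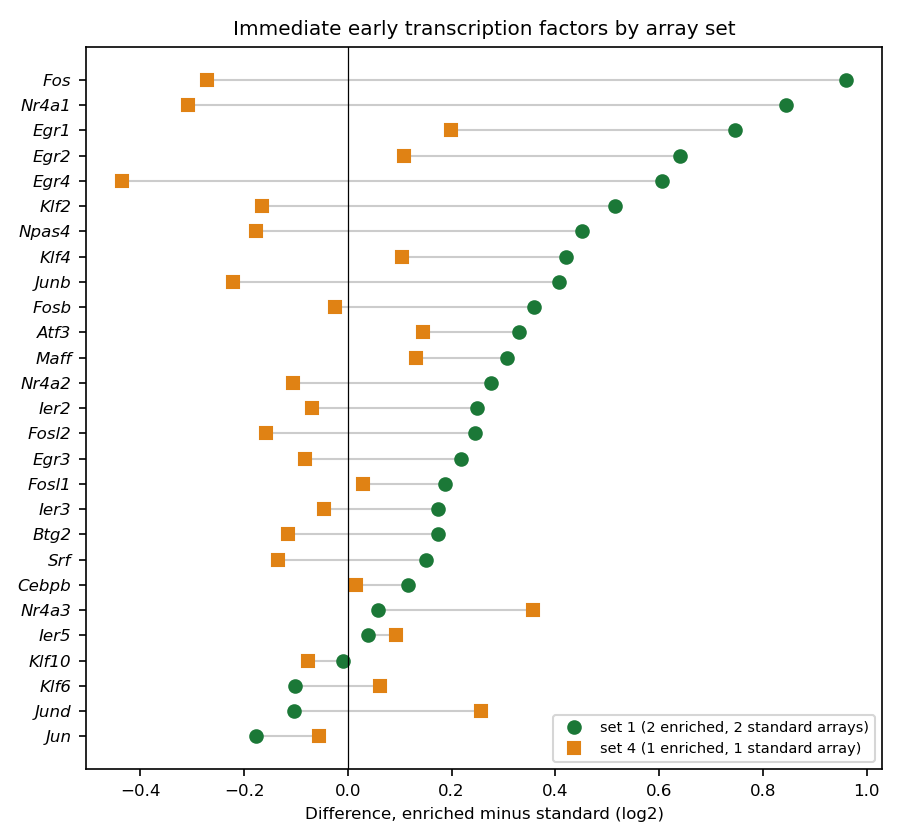
Difference between enriched and standard-cage wild-type arrays (log2) for the 27 immediate early transcription factors, in array set 1 (circles) and array set 4 (squares), ordered by the set 1 value. Fos reaches 0.96 in set 1 and lies at -0.27 in set 4, whereas Maff, Atf3, Egr1, Egr2 and Klf4 are above 0 in both.

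CREB binds the palindrome TGACGTCA, and its shorter form TGACG. On either strand, the long motif was found in 1.55% and the short one in 17.8% of 32851 windows of 250 bases before a gene start (RefSeq, GRCm38.p6). Of the 27 factors, 22 had a window, and the long motif was in those of 2, Maff and Btg2, and the short one in those of 16, Fos among them. A factor was counted if any of its windows held the motif, whereas the percentages are of single windows, so the 2 are not alike. The stretches are shown as matches to the letters CREB is known to bind, in factors of this list, with the motif in capitals, and a match is not a measured site.
Maff, chr15:79347475-79347514, plus strand: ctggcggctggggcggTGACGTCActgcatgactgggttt
Btg2, chr1:134079298-134079337, minus strand: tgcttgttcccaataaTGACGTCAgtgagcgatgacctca
Fos, chr12:85473745-85473844, plus strand: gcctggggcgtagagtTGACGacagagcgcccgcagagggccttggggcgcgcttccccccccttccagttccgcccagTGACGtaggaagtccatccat
Maff, a small Maf factor, had the smallest p of the list, with log2 signals of 5.803, 5.71 and 5.56 in enriched mice, against 5.48, 5.41, 5.34, 5.36 and 5.42 in standard cages, a difference of 0.28 (SE 0.06, adjusted p = 0.083 by limma) that was 0.17 after quantile normalization. Btg2, an antiproliferative gene that carries the same long motif, differed by 0.07, with 0.17 in set 1 and -0.11 in set 4.

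The effectors of activity differed between the array sets as a list. Of 26 measured, 14 were higher and 12 lower, with a median of 0.02. The median was 0.24 in set 1 and -0.18 in set 4, where 8 of 26 were above 0, and 7 genes were higher and 4 lower in both sets. Over all arrays, 4 (15.4%, beside 9.16% of all probe sets) were higher on all enriched arrays than on any standard-cage array: Bdnf, Ptgs2, Homer1 and Inhba. That share was 1.32% of the brighter probe sets, which hold 22 of the 26 genes, and 17% of the dimmer ones, which hold Inhba. Bdnf, the neurotrophin that acts through TrkB, had log2 signals of 7.29, 7.25 and 7.09 in enriched mice, against 6.91, 6.95, 6.97, 6.62 and 6.88 in standard cages. The difference was 0.34 (SE 0.10, 1.27-fold, adjusted p = 0.153 by limma), 0.34 in set 1 and 0.21 in set 4. Ptgs2, the inducible cyclooxygenase, had 8.56, 8.34 and 8.36 in enriched mice, against 8.25, 8.09, 7.96, 7.75 and 7.79 in standard cages, and differed by 0.45 (SE 0.13), or by 0.28 within set 1 and 0.57 within set 4.

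Homer1, a postsynaptic scaffold whose short form is activity-induced, had 9.47, 9.32 and 9.29 in enriched mice, against 9.18, 9.21, 8.92, 9.19 and 8.92 in standard cages. It differed by 0.28 (SE 0.08), and 1 probe set reads the gene, so its forms cannot be told apart. Inhba, a subunit of activin, had 6.88, 6.82 and 6.66 in enriched mice, against 6.55, 6.48, 6.47, 6.41 and 6.51 in standard cages, and differed by 0.30 (SE 0.09). All 4 genes lay higher after quantile normalization too, by 0.29 to 0.53, and their adjusted p-values without block were 0.141 to 0.153. Arc, a protein that controls removal of AMPA receptors, behaved like Fos, with 9.05, 8.71 and 8.09 in enriched mice, against 7.93, 7.85, 9.17, 8.63 and 8.38 in standard cages, so the groups overlapped fully.

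Neuropeptide genes held the largest differences among neuronal genes described here. Penk, the precursor of enkephalins, had log2 signals of 9.24, 9.40 and 10.18 in enriched mice, against 8.97, 9.26, 8.63, 8.14 and 9.21 in standard cages, a difference of 0.77 (SE 0.28, 1.70-fold, adjusted p = 0.198 by limma). WT_EE_1 lay just below WT_SC_2, and the difference was 0.21 in set 1 and 0.97 in set 4. Npy, the neuropeptide Y of interneurons, had 9.63, 9.79 and 9.88 in enriched mice, against 8.88, 9.02, 9.32, 8.84 and 9.69 in standard cages, a difference of 0.62 (SE 0.20, 1.53-fold, adjusted p = 0.164); set 1 gave 0.76 and set 4 gave 0.19. WT_SC_5 alone among the standard-cage arrays reached the enriched range.

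Cort, the precursor of cortistatin, differed by 0.39 (SE 0.15), and the array sets gave 0.78 (set 1) and -0.11 (set 4). Cck, cholecystokinin, was at 11.25, 11.39 and 10.38 in enriched mice, against 11.25, 11.36, 11.57, 11.01 and 11.64 in standard cages, so that only WT_EE_3 stood below. Vgf, a secreted activity-induced protein, differed by 0.15 over all arrays, by 0.41 in set 1 and by 0.06 in set 4. Over the 21 genes of neuropeptides and secretory granules, 15 were higher, 6 lower and 0 passed, with a median of 0.11 that was 0.05 after quantile normalization.

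Growth factors and their receptors had no common direction. Of 24 measured, Bdnf among them, 13 were higher and 11 lower, with a median of 0.02 that was -0.01 after quantile normalization. Igf1 and Vegfa, which running is known to engage, differed by 0.07 (SE 0.06) and 0.06 (SE 0.09). Ntrk2, which encodes the Bdnf receptor TrkB, had a difference of -0.31 (SE 0.17), and Ntrk3, which encodes TrkC, one of -0.26 (SE 0.11). Igf2r, the receptor that takes up insulin-like growth factor for degradation, was lower on all enriched arrays, with 7.53, 7.39 and 7.61, against 7.72, 7.73, 7.95, 7.96 and 7.81 in standard cages (difference -0.33, SE 0.11, adjusted p = 0.175 by limma).

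Genes of the synapse and of ion channels had lower values in enriched mice, and so did bright probe sets in general. All 24 presynaptic genes of vesicles and release were lower (median -0.21), as were 25 of 29 postsynaptic scaffolds and kinases (-0.19), 25 of 31 glutamate receptor genes (-0.13), 18 of 24 sodium, calcium and HCN channel genes (-0.20) and 29 of 38 potassium channel genes (-0.10), and 0 genes of these lists passed. The brighter probe sets as a whole had a median of -0.07. After quantile normalization the 5 medians were -0.13, -0.11, -0.06, -0.12 and -0.01, and with the array set as a block as well they were 0.01, 0.00, 0.00, 0.00 and 0.01. As a deviation from the standard-cage mean, the presynaptic list stood at -0.10, -0.09 and -0.28 on the enriched arrays. It stood at 0.18 and 0.10 on WT_SC_3 and WT_SC_4, the arrays of sets 2 and 3, and at -0.06, -0.06 and -0.22 on the other standard-cage arrays.

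Single genes of these lists were lower in both array sets. Camk2g, a subunit of the calcium and calmodulin kinase, had log2 signals of 8.76, 8.85 and 8.58 in enriched mice, against 9.01, 9.13, 9.04, 9.17 and 8.998 in standard cages, a difference of -0.34 (SE 0.08, adjusted p = 0.114 by limma), with -0.26 in set 1, -0.42 in set 4 and -0.24 after quantile normalization. Grin2b, an NMDA receptor subunit, had 10, 9.98 and 9.68 in enriched mice, against 10.21, 10.17, 10.20, 10.06 and 10.03 in standard cages, a difference of -0.25 (SE 0.09). Scn8a, the sodium channel of the axon initial segment, had 9.20, 9.35 and 9.22, against 9.55, 9.53, 9.74, 10.02 and 9.50 in standard cages, a difference of -0.41 (SE 0.15), which was -0.26 within set 1 and -0.27 within set 4.

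Syt1, the calcium sensor of release, differed by -0.21 (SE 0.09), Cplx2, a complexin, by -0.22 (SE 0.08), and Scn2b, an auxiliary sodium channel subunit, by -0.27 (SE 0.09), each with all enriched arrays below all standard-cage arrays. Camk2b differed by -0.38, where the groups lay next to each other without overlap, and Camk2a by -0.19, where they overlapped. Gria1, an AMPA receptor subunit, was at 11.20, 11.35 and 10.69 in enriched mice, against 11.52, 11.53, 11.27, 11.50 and 10.96 in standard cages, a difference of -0.27 (SE 0.17), and the array of set 4 was the lowest of each group. Syn1, a vesicle phosphoprotein, had a difference of -0.26 over all arrays, of 0.04 in set 1 and of -0.01 in set 4, and WT_SC_3 stood alone at 10.76.

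**Figure D5:**
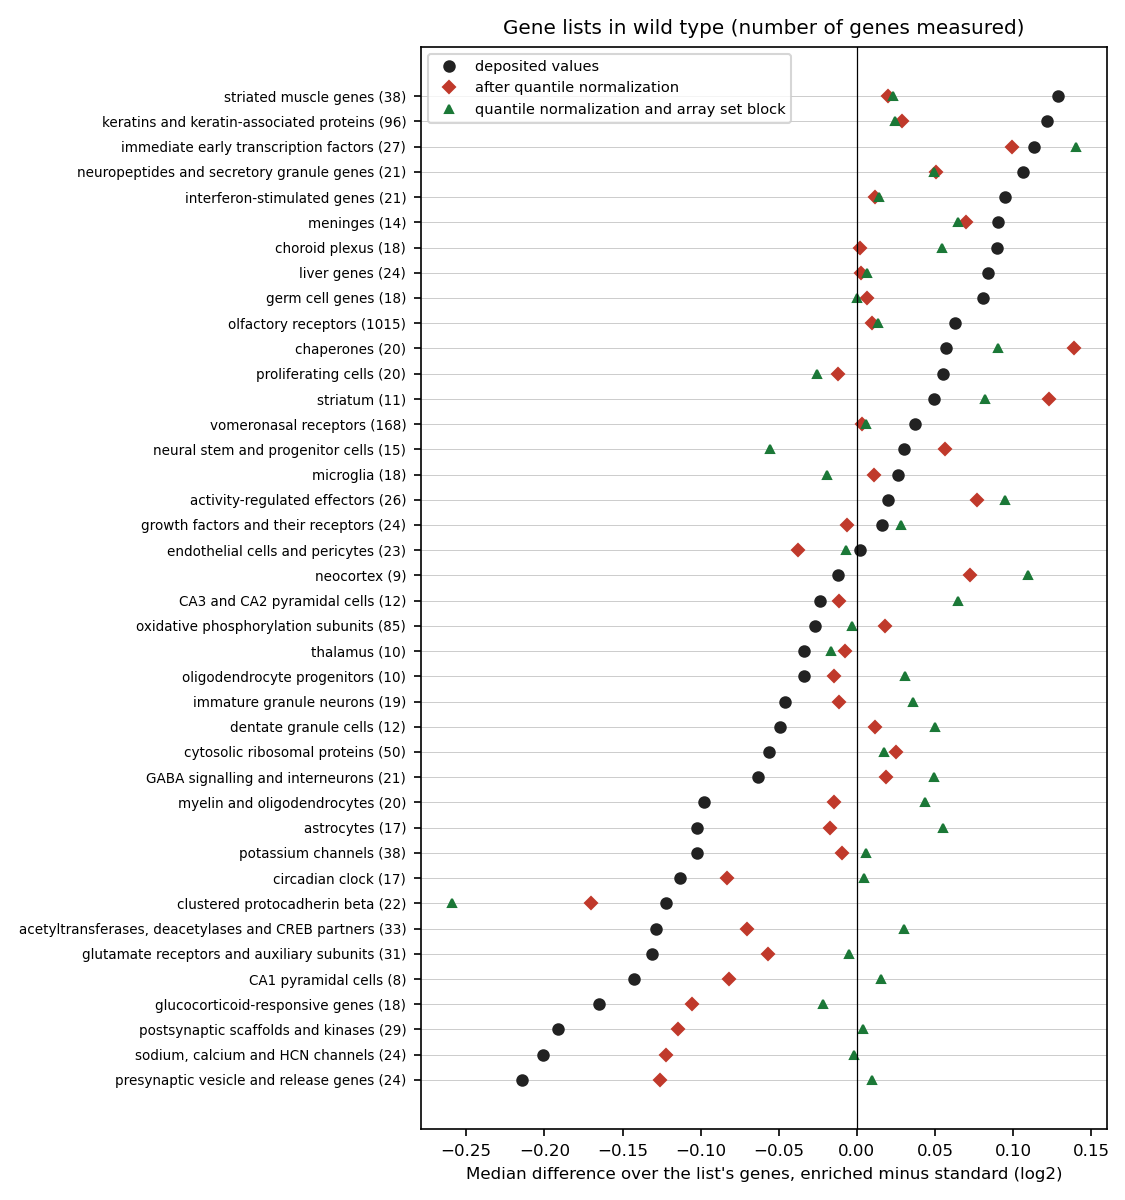
Median difference between enriched and standard-cage wild-type arrays (log2) over the genes of each list, with the number of genes measured in brackets, on the deposited values (circles), after quantile normalization (diamonds) and after quantile normalization with the array set as a block (triangles). The synapse and channel lists at the bottom lie between -0.21 and -0.10 as deposited and at about 0 with both steps. With both steps the immediate early factors lie at 0.14 and the clustered protocadherins of the beta group at -0.26. After quantile normalization, the medians in sets 1 and 4 were 0.27 and -0.045 for the early factors and -0.47 and -0.08 for the protocadherins.

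Genes of newborn neurons and of dividing cells showed no common direction. Of 19 genes of immature granule neurons, 7 were higher and 12 lower (median -0.05), of 15 genes of neural stem cells 9 were higher (median 0.03), and of 20 genes of proliferating cells 14 were higher (median 0.06, and -0.01 after quantile normalization). Dcx, the microtubule protein of migrating young neurons, had log2 signals of 7.05, 6.84 and 7.11 in enriched mice, against 7.24, 7.24, 6.84, 6.98 and 6.87 in standard cages, a difference of -0.04 (SE 0.10). Neurod1, a factor of granule neuron maturation, had 6.998, 7.39 and 8.05, against 7.71, 7.81, 7.14, 7.21 and 7.19 in standard cages, so that its difference was -0.56 in set 1 and 0.86 in set 4.

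Mki67, a nuclear protein of cycling cells, differed by 0.04 (SE 0.05), at signals among the dimmest read, between 5.19 and 5.37 on the wild-type arrays. Dpysl3, a protein of growing axons that the immature neuron list holds, was lower on all enriched arrays, with 7.73, 7.74 and 7.46, against 8.06, 8.01, 8.11, 7.85 and 7.76 in standard cages (difference -0.31, SE 0.10, and -0.30 in each array set). Calb2, the calretinin of young granule cells and some interneurons, differed by -0.23 (SE 0.11), and Neurog2, a proneural factor, by 0.15 (0.03 after quantile normalization).

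Markers of the hippocampal fields had no direction that held under every scaling. The median was -0.05 over 12 dentate granule genes, -0.14 over 8 genes of CA1 and -0.02 over 12 of CA3 and CA2, and with quantile normalization and the set as a block these were 0.05, 0.02 and 0.06. Genes of GABA signalling and interneurons had a median of -0.06 (16 of 21 lower), which was 0.02 after quantile normalization. Rgs14, a CA2 gene, was lower on all enriched arrays (7.84, 7.92 and 7.45, against 7.95, 7.93, 8.30, 8.22 and 8.15 in standard cages), with -0.06 in set 1 and -0.70 in set 4. Pcp4, a calmodulin-binding protein that is also a CA2 marker, had 10.93, 10.93 and 11.44 in enriched mice, against 10.78, 10.67, 10.76, 10.48 and 10.98 in standard cages, a difference of 0.36 (SE 0.13). These genes of the same field thus differed in opposite directions.

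The myelin and astrocyte lists were lowest on WT_EE_3 among the wild-type arrays. Myelin genes had a median of -0.10 (14 of 20 lower) and astrocyte genes of -0.10 (15 of 17 lower), and on WT_EE_3 alone these lists stood at -0.31 and -0.32 below the standard-cage mean, against -0.04 and 0.01 for myelin and 0.00 and 0.03 for astrocytes on WT_EE_1 and WT_EE_2. Cnp, an enzyme of myelin, had 9.53, 9.58 and 8.88 in enriched mice, against 9.65, 9.48, 10.13, 9.96 and 9.71 in standard cages. Mbp and Gfap, the defining proteins of myelin and of astrocyte filaments, differed by -0.18 (SE 0.12) and -0.22 (SE 0.15). With quantile normalization and the set as a block, the myelin and astrocyte medians were 0.04 and 0.06. Genes of oligodendrocyte progenitors had a median of -0.03 (6 of 10 lower), and 0.03 with both steps. Microglial genes had a median of 0.03 (11 of 18 higher) and vascular genes one of 0.00 (12 of 23 higher).

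Markers of tissue next to the hippocampus varied between single arrays. Ttr, the transthyretin of choroid plexus, had log2 signals of 8.49, 9.56 and 7.34 in enriched mice, against 10.90, 8.60, 7.75, 7.14 and 7.17 in standard cages, which is a range wider than that of any other named gene. Of the 18 choroid plexus genes 16 were higher in enriched mice, with a median of 0.09 that was 0.00 after quantile normalization. With quantile normalization and the set as a block, their median was 0.05, with 15 higher and 3 lower. The median over meningeal genes was 0.09 (9 of 14 higher) over cortical genes -0.01 (3 of 9 higher, and 0.07 after quantile normalization), over thalamic genes -0.03 (4 of 10 higher) and over striatal genes 0.05 (8 of 11 higher). What part these amounts had in the differences was not tested.

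The lists of the cytosolic ribosome and of oxidative phosphorylation varied between arrays more than between housings. Over 50 genes of the cytosolic ribosome, 14 were higher and 36 lower (median -0.06, and 0.02 after quantile normalization). But the list stood at -0.30 and -0.12 on WT_EE_1 and WT_EE_2 and at 0.25 on WT_EE_3. Over 85 subunits of oxidative phosphorylation, 39 were higher and 46 lower (median -0.03, and 0.02 after quantile normalization), with -0.16, -0.09 and 0.13 on the enriched arrays, against -0.16, -0.08, 0.00, -0.05 and 0.30 in standard cages. The circadian clock genes had a median of -0.11 (13 of 17 lower), glucocorticoid-responsive genes one of -0.16, with 0.16 in set 1 and -0.48 in set 4, and chaperones one of 0.06 (14 of 20 higher). Enzymes of acetylation and CREB partners had a median of -0.13 (26 of 33 lower), which was 0.03 after quantile normalization with the set as a block. Crebbp and Ep300, the paired coactivators, differed by -0.17 (SE 0.11) and -0.22 (SE 0.15).

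The clustered protocadherins of the beta group, adhesion proteins that give neurons individual surfaces, were the list with the lowest median once array sets were taken into account. Of 22 genes, 17 were lower in enriched mice (median -0.12), and the median was -0.17 after quantile normalization, -0.41 in set 1, -0.12 in set 4 and -0.26 with quantile normalization and the set as a block, where 21 of 22 were lower. Within set 1, 15 of 22 passed as lower and 0 as higher, beside 13.8% of all probe sets that passed as lower. Pcdhb18 had 6.06, 6.30 and 6.24 in enriched mice, against 6.78, 6.63, 6.39, 6.22 and 6.60 in standard cages, a difference of -0.32 (SE 0.11). The standard-cage arrays spanned the range by themselves, with the list at 0.34 and 0.18 on WT_SC_1 and WT_SC_2 and at -0.26 and -0.17 on WT_SC_3 and WT_SC_4. Members of this cluster are similar in sequence, so their probe sets may share transcripts and are not independent.

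Among the dimmer genes lower in enriched mice, the rule took Zfp536, Mir300, Mir29a, Jpt2 and Snora69. MicroRNAs pair with target messages through their seed, bases 2 to 8, and the mature forms are shown because the array's probe sets are annotated to the microRNA gene and not to an arm. Sequences are those of RefSeq on GRCm38.p6, with the seed in capitals.
mmu-miR-300-3p, chr12:109724363-109724384, plus strand: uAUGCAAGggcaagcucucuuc
mmu-miR-300-5p, chr12:109724318-109724339, plus strand: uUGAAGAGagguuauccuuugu
mmu-miR-29a-3p, chr6:31062673-31062694, minus strand: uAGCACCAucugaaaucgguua
mmu-miR-29a-5p, chr6:31062711-31062732, minus strand: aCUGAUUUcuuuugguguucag
The 4 arms carry 4 different seeds. Mir300 had log2 signals of 5.99, 6.17 and 5.52 in enriched mice, against 6.57, 6.46, 6.22, 6.35 and 6.43 in standard cages, a difference of -0.51 (SE 0.13, adjusted p = 0.123 by limma); within set 1 it was -0.44 and within set 4 it was -0.91. Mir29a had 4.75, 4.74 and 4.70 in enriched mice, against 5.00, 5.07, 4.94, 4.88 and 4.80 in standard cages, a difference of -0.21 (SE 0.06), at signals near the low end of the arrays. Over 296 probe sets of microRNA genes, 81 were lower and 215 higher (median 0.07), with 7 lower on all enriched arrays than on any standard-cage array (beside 2% of all probe sets) and 30 higher (beside 9.16%). Which RNA form these probe sets read was not tested.

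No difference between the housing contrast of wild type and that of cbp+/- mice passed. The interaction, the wild-type difference minus that of cbp+/-, was called for 0 of 21780 probe sets, with 579 at an unadjusted p under 0.05. Htra4 differed by 0.51 in wild type and by 0.27 in cbp+/- (interaction 0.24, SE 0.15, adjusted p = 1.00 by limma). Npy differed by 0.62 in wild type and by 0.61 in cbp+/-, Penk by 0.77 in wild type and by 0.94 in cbp+/-, and Bdnf by 0.34 in wild type and by 0.46 in cbp+/-. Tnnc1 differed by 0.37 in wild type and by 0.08 in cbp+/- (interaction 0.29, SE 0.07), and Mtmr10 by -0.25 in wild type and by 0.01 in cbp+/- (interaction -0.26, SE 0.07), each with an adjusted p of 1.00. The cbp+/- arrays lie in the same array sets, so these contrasts share that structure.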

How the data were processed

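The 16 arrays were of the type Mouse Gene 1.0 ST (Affymetrix), hybridized with hippocampal RNA. The deposited values are linear intensities, from 22.12 to 16520.9; per the submitters' processing notes the method was RMA, and per the labels' protocols GeneSpring GX served to normalize and analyse them. Not given in the sources used here are versions, any baseline step and the genome build. RMA gives no detection call, and the number of arrays limits the precision.

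Log2 of the deposited intensity was fitted in R 4.3.3 with limma 3.58.1 (lmFit, eBayes; 4 group means, 16 arrays, 12 residual degrees of freedom) on the 21780 of 28815 probe sets with exactly 1 gene symbol; 1605 had several symbols and 5430 were unnamed here. By gene number, 21689 matched RefSeq (GRCm38.p6). P-values were adjusted by Benjamini-Hochberg (threshold 0.05). The fit was also run on simulated data with independent noise. These held no array sets and no shift with brightness, so the run cannot speak to either. Array sets came from Ward clustering of Euclidean distances cut at 4. Alternatives were quantile normalization, blocks, weights, filters and left-out arrays.

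Each gene is read by its brightest probe set. Genes were named by a rule: the 10 of smallest p per direction among the brighter probe sets, 5 per direction among the dimmer, leaving out receptors of smell and taste and unnamed loci, up to 4 per list, and a fixed set; not all are printed. The 42 gene lists and the choice of arrays were made with earlier results of these data known. Group and replicate came from the titles.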

Additional observations from a re-analysis of the deposited data

Results flagged for a closer look

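Among the 103 genes examined, 4 had 1 standard-cage array far from the other 4; chance flags about 1 in 20 such groups. Bdnf was low on WT_SC_4, at a log2 signal of 6.62, against 6.88 on the next array. Npas4 was high on WT_SC_3, at 6.77, against 6.39 on the next. Aurkb, a mitotic kinase, was high on WT_SC_4, at 6.07, against 5.87 on the next. Grin3a, an NMDA receptor subunit, was low on WT_SC_5, at 7.16, against 7.61 on the next.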

How the results depend on the processing

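The count of 0 genes between enriched and standard-cage wild-type mice held with quantile normalization, with that and the array set as a block, with the 8 wild-type arrays only, with the replicate block and in the brighter probe sets alone. It became 15 (6 higher, 9 lower) with the array set as a block, 6513 (3499 and 3014) within array set 1, 5254 (3712 and 1542) with array weights, 100 (all higher) with an intensity trend in the variance prior and 36 (35 and 1) over all deposited probe sets. Leaving out 1 array gave 0 to 19 calls (0 to 18 higher, 0 to 1 lower); these were 3 without CBP_SC_3, 7 without CBP_EE_2 and 19 without CBP_EE_3, which enter the spread only, and 0 without any 1 wild-type array. The interaction count was 429 with array weights and 0 under the other settings that gave one. Between the wild-type housing groups the replicate numbers did not pair the arrays (correlations of same-numbered deviations were -0.26, -0.01 and -0.39). The highest correlations of these deviations from the group mean were with WT_SC_3 for WT_EE_1 (0.39) and WT_EE_2 (0.21). For WT_EE_3 the highest was with WT_SC_5 (0.43). The replicate block gave 0 calls. By overall likeness, the array nearest to WT_SC_3, WT_SC_4, WT_SC_5, WT_EE_2 and WT_EE_3 was the same-numbered cbp+/- array of the same housing. For WT_SC_1, WT_SC_2 and WT_EE_1 it was another wild-type array. The main fit and its interaction do not use this likeness. Set 4 holds 1 array a group and allows no test.

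Of 103 genes, 86 kept their direction under every setting. In set 4, differences turned to -0.27 for Fos, -0.29 for Arc, -0.18 for Npas4, -0.31 for Nr4a1 and -0.11 for Cort, and to 0.24 for Dcx, 0.14 for Crebbp and 0.28 for Ep300. In set 1 they turned to 0.021 for Cck, -0.023 for Igf1, -0.56 for Neurod1, 0.039 for Syn1, 0.021 for Mbp and -0.72 for Ttr. Quantile normalization gave -0.0081 for Igf1 and -0.054 for Mki67; with the set block as well it gave -0.055 for Igf1, -0.024 for Neurod1, -0.040 for Mki67, 0.015 for Camk2a, 0.067 for Syn1, 0.011 for Reln, 0.044 for Crebbp and 0.011 for Ep300. The set block alone gave -0.054 for Neurod1, and the replicate block gave -0.015 for Neurod1 and -0.64 for Ttr. Array weights gave 0.019 for Cck, -0.045 for Igf1, -0.22 for Neurod1, 0.013 for Camk2a and 0.049 for Mbp. Leaving out 1 array gave -0.092 to 0.045 for Dcx, -0.21 to 0.31 for Neurod1, -0.0053 to 0.067 for Mki67 and -0.40 to 0.80 for Ttr. The cause of these turns was not tested. With only the brighter members of each list, an alternative chosen after seeing the data, some list medians changed sign. Those of striated muscle genes (2 members) and interferon-stimulated genes (4 members) were -0.043 and -0.040. The medians of activity-regulated effectors, growth factors and receptors, microglial, vascular and blood genes also fell below 0. Those of keratins (9 members), olfactory receptors (4 members) and liver genes (1 member) stayed above 0.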
